A study of Rattus norvegicus with 10 samples.

Results

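The antioxidant genes examined here are the genes of glutathione synthesis and use, the peroxiredoxins, the thioredoxin system, the superoxide dismutases, catalase, the heme oxygenases and the quinone reductases. The set was defined with earlier results of these data known. Its members were taken by gene symbol from probe sets (groups of short probes that each measure a transcript) with exactly 1 symbol in the platform annotation. The brightest probe set stood for each gene. This gave 48 genes on 52 probe sets, of 14218 genes on 20832 such probe sets. *Prdx1* and *Gsta2* were not measured alone, since their probe sets carry more than 1 symbol and were left out.

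The question was which genes respond to calorie restriction (CR, less food without malnutrition) of a mild or moderate degree. Male Wistar rats, an outbred strain, were bought at 5 weeks and were 6 weeks old at the start. For 1 week they received their full recorded intake (control) or 5, 10, 20 or 30% less. All rats, the controls too, were fasted for 16 h before the brain was taken, and the methods place the sample in the hypothalamus area. Each group is 1 Affymetrix array of RNA pooled from 5 rats, and the spread between rats was not measured. The number of arrays limits the precision of every value. The 1 month arrays were not used, because their rows do not follow the probe set identifiers (the correlation with the 1 week arrays across probe sets was 0.036 to 0.052).

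Glutathione is a small thiol peptide. Glutamate-cysteine ligase (*Gclc*, *Gclm*) and glutathione synthetase (*Gss*) make it, and glutathione reductase (*Gsr*) returns it to its reduced form. Glutathione peroxidases use it to reduce peroxides, and glutathione transferases join it to reactive compounds. Peroxiredoxins also reduce peroxides and are in turn reduced by thioredoxin, which thioredoxin reductases recharge with NADPH. In the brain, astrocytes are known for a high glutathione content, and many of these genes can be induced by the transcription factor Nrf2 (*Nfe2l2*) through the antioxidant response element in their promoters.

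The 1 control array differed from the others as a whole, and every comparison of CR with control below uses it. Its log2 signals correlated with those of the CR arrays at 0.852 to 0.874, against 0.912 to 0.922 among the CR arrays. Of its probe sets 24.0% had a signal under 10, against 11.7 to 14.4% under CR. Poly-A spike-ins, added before labelling, were higher on it in 12 of 12 probe sets (median log2 difference 1.23), while hybridization spike-ins were higher on it in 3 of 9 (median -0.16). The 3'/5' signal ratio of GAPDH, which reflects RNA integrity, was 0.19 on it and 0.40 to 0.79 on the CR arrays (log2). The same ratio of beta-actin was larger, 1.90 on the control array and 2.19 to 2.80 on the CR arrays. The part of these differences in the results was not tested. Of the hypothalamic markers, *Pmch* (7157 on the control array), *Oxt* (3848), *Avp* (3722) and *Hcrt* (1808) had high signals, while the probe set of *Pomc* did not exceed 14.8 on any array. In pooled tissue, fewer cells of a type and less RNA per cell cannot be told apart.

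To show the letters that the Nrf2 element would need, the promoter windows of the members (250 bases before to 50 after the gene start, from RefSeq, build GRCr8) were searched for the core TGACNNNGC on both strands. Of 48 members, 40 had a window in the table. The core was found in 11 of them (27.5%), against 3342 of 27457 windows of all genes (12.2%). These are the matches with 10 bases on each side, 5' to 3' along the gene, with the match in capitals. A match that begins with GC lies on the opposite strand.
Gclm (chr2:213031953-213031981, plus strand): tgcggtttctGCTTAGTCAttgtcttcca
Gpx2 (chr6:101230028-101230056, minus strand): acctggtttcGCTAAGTCAttctgggaat
Gsta1 (chr9:31216484-31216512, minus strand): aactcaggcaTGACTTTGCatttttcttc
Gsta3 (chr9:31154962-31154990, plus strand): aactcaggcaTGACTTCGCattttttcct
Gstm5 (chr2:198219646-198219674, plus strand): caaggccaagTGACCACGCggagggcggg
Gstm5 (chr2:198219706-198219734, plus strand): tcagtcgcgtTGACCCCGCccacagcgtc
Gstm7 (chr2:198260315-198260343, minus strand): gaggctagatTGACACAGCctgtccgttc
Gstp1 (chr1:210769748-210769776, minus strand): tccactgtgtTGACTCAGCatccggggcg
Hmox2 (chr10:11337689-11337717, minus strand): gtcttggaagGCAGTGTCAgcttggccag
Prdx4 (chrX:43878742-43878770, plus strand): tttcgtgctcGCTTGGTCAtggaaacgtg
Prdx5 (chr1:213532010-213532038, minus strand): cctcctgtggGCAGAGTCAtctgcgggtg
Sod2 (chr1:50050185-50050213, minus strand): ggcgctgccgGCAGGGTCAgcgcctagct
Of the 12 matches, 10 begin before the gene start, and 5 of the 11 genes are glutathione transferases. The stretches of *Gsta1* and *Gsta3*, neighbours in the genome, differ at 5 of 29 bases. A match is a description of the letters and not a measured binding site. Among the 8 members that passed the test below, 6 had a window, and *Prdx4* was the 1 with a match. Sequence outside the windows was not searched, so a window without a match does not mean that the gene lacks the element.

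At 1 week, 3 peroxiredoxins fell (log2 differences of -1.34 to -0.75), while thioredoxin and the glutathione transferase *Gsta4* rose (0.45 and 0.59). Of the 48 genes, 39 had a mean log2 signal above the median of all probe sets (a signal of 53.3) and were tested with limma, the 4 CR arrays against the control array. The calls used an adjusted p under 0.05 (Benjamini-Hochberg over 15521 probe sets). As deposited, 3 members were higher in CR (*Txn1*, *Gsta4*, *Hmox1*) and 5 lower (*Prdx3*, *Prdx4*, *Prdx6*, *Nqo1*, *Gpx3*). *Hmox1* passed the signal filter only through its CR arrays, so that its call had to be in this direction. The counts are 7.69% and 12.8% of the members tested, beside 14.5% higher and 11.0% lower over all probe sets tested, and in both directions together 20.5% against 25.5%. Their median log2 difference was -0.18, against 0.03 over all probe sets, and their median size of difference was 0.35, against 0.41. The fit takes the single control array to vary as the others do, so the diet and the particular control pool or array cannot be told apart.

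**Figure D1:**
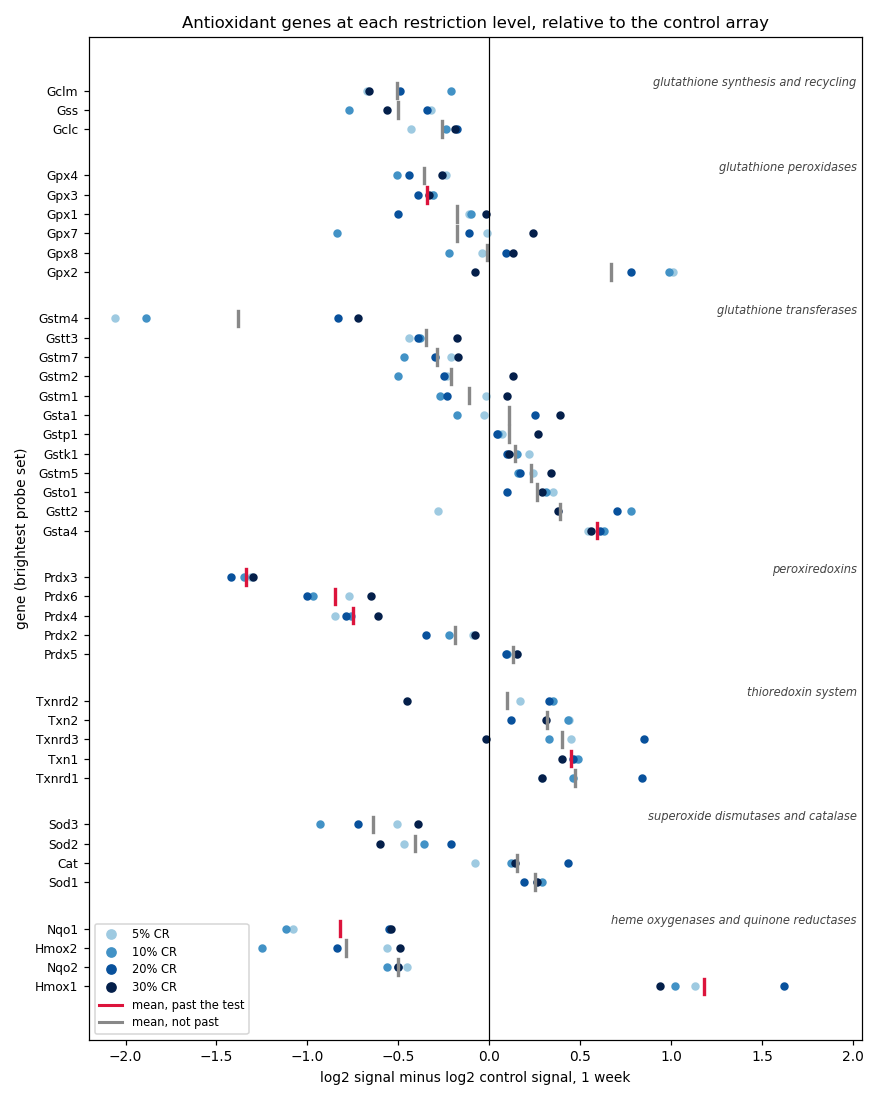
Log2 signal of each CR array minus the control array (x axis) for the 39 tested genes (y axis), grouped by role, with 1 point per restriction level and a bar at the mean, red where the adjusted p was under 0.05. *Prdx3* lies furthest left among the genes past the test, with its 4 points between -1.42 and -1.30, and the 4 points of *Hmox1* lie between 0.94 and 1.62.

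Among the 39 members, all 4 CR arrays were above the control in 11 (28.2%) and below it in 18 (46.2%), and in 10 the control lay within them. Over all probe sets tested, 37.1% lay wholly above and 33.1% wholly below. At single levels, members past 1.5-fold of the control were no more frequent than probe sets in general. At 5% CR 2 were higher and 6 lower (20.5% of members, 35.4% of all probe sets). At 10% CR 4 were higher and 9 lower (33.3%, against 38.5%). At 20% CR there were 6 in each direction (30.8%, against 39.7%), and at 30% CR 1 was higher and 6 lower (17.9%, against 33.2%).

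**Figure D2:**
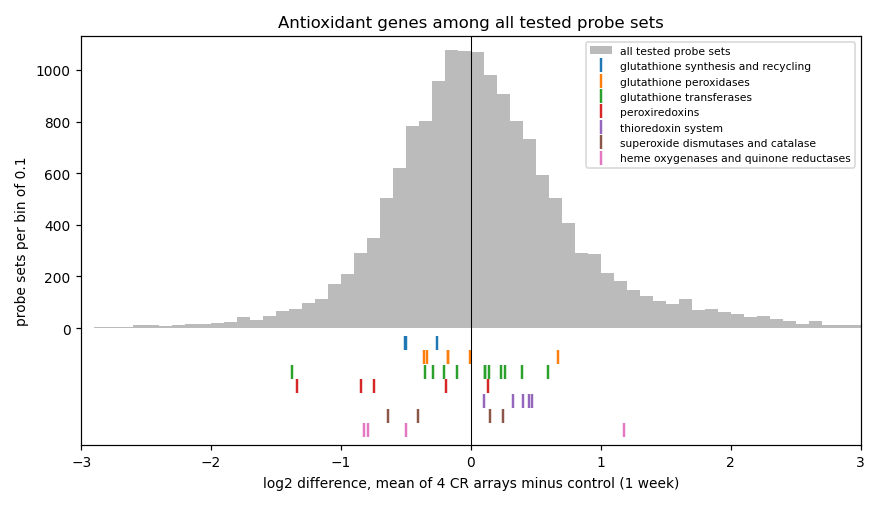
Grey bars count all 15521 tested probe sets by their mean log2 difference between the 4 CR arrays and the control (x axis), in bins of 0.1 between -3 and 3. Coloured ticks below mark the 39 tested genes by role, and spread from -1.38 to 1.18.

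Of the 5 peroxiredoxins measured alone, 3 fell and 2 did not pass, beside 11.0% lower over all probe sets tested. *Prdx3*, the mitochondrial member of the family, had a signal of 879.4 in the control and of 354.7, 345.4, 329.7 and 357.0 at 5, 10, 20 and 30% CR. The CR arrays lay within 1.08-fold of each other and all far below the control, a log2 difference of -1.34 ± 0.14 (SE of the limma fit, 4 CR arrays and 1 control array; adjusted p = 3.7e-04), or 2.54-fold lower. *Prdx6*, which uses glutathione in place of thioredoxin and also has phospholipase activity, had 1494 in the control and 875.2, 761.4, 745.0 and 951.7 in CR. The groups did not overlap, and the difference was -0.85 ± 0.15 (adjusted p = 0.0039). *Prdx4*, the member of the endoplasmic reticulum, had 589.5 in the control and 326.3, 347.8, 341.0 and 387.0 in CR, again without overlap (-0.75 ± 0.16, adjusted p = 0.0076). These 3 decreases passed under all 11 alternatives tried. Median scaling moved differences downward and so could not weaken a decrease, and each alternative keeps the same control array.

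*Prdx2* and *Prdx5* did not pass. *Prdx2*, a cytosolic member abundant in neurons and red cells, had 3558 in the control and 3337, 3061, 2792 and 3360 in CR, all below it by little (-0.19, 95% interval -0.46 to 0.08). *Prdx5*, found in mitochondria, peroxisomes and cytosol, had 1817 in the control and 2021, 1955, 1938 and 2016 in CR, all slightly above (0.13, interval -0.10 to 0.35). The intervals of *Prdx3* (-1.67 to -1.02), *Prdx4* (-1.11 to -0.40) and *Prdx6* (-1.19 to -0.51) lay below that of *Prdx5*, and that of *Prdx2* overlapped the one of *Prdx4*. Differences between members were not tested. With median scaling *Prdx5* turned to -0.31.

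The promoter windows of *Prdx3* and *Prdx4* are shown with those of *Gsta4* and *Txn1*, as members that fell and members above control with a window in the table (the 250 bases before the gene start, 5' to 3' along the gene, GRCr8, no capitals because the core does not occur in them).
Prdx3 (chr1:270000112-270000361, minus strand): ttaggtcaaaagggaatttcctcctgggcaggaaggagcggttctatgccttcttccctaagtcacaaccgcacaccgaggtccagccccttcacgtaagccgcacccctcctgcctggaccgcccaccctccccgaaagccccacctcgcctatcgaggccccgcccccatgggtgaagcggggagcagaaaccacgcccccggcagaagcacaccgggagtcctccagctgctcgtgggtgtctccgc
Prdx4 (chrX:43878483-43878732, plus strand): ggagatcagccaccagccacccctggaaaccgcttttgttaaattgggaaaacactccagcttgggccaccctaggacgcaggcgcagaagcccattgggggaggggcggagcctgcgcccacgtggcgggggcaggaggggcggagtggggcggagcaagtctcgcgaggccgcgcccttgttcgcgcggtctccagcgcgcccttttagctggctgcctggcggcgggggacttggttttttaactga
Gsta4 (chr8:87947015-87947264, plus strand): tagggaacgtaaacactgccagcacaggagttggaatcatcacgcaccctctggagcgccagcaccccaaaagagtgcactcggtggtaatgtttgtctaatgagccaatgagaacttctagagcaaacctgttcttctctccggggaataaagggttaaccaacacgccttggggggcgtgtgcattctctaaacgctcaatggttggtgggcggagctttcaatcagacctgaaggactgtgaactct
Txn1 (chr5:77519686-77519935, minus strand): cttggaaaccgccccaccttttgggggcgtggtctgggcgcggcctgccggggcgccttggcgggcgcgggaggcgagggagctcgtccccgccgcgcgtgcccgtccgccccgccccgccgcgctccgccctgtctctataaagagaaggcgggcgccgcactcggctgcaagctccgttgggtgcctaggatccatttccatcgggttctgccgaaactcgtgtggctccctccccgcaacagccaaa
The G and C content of these windows was 64.8% for *Prdx3*, 66.0% for *Prdx4*, 51.2% for *Gsta4* and 71.2% for *Txn1*. Over all windows the median was 52.0% and the middle range 44.4 to 60.8%, so the windows of both peroxiredoxins and of *Txn1* are rich in G and C and that of *Gsta4* is not.

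In the thioredoxin system all 5 tested members had a mean above control, but only *Txn1* was called, beside 14.5% higher over all probe sets tested. With median scaling 3 of the 5 means turned below 0 (*Txn2*, *Txnrd2* and *Txnrd3*), and *Txn1* and *Txnrd1* came to 0.02 and 0.04. *Txn1*, cytosolic thioredoxin, had 3965 in the control and 5506, 5577, 5442 and 5220 in CR. The CR arrays lay within 1.07-fold of each other and above the control, a difference of 0.45 ± 0.09 (adjusted p = 0.0064). The call was lost with quantile scaling (0.24, adjusted p = 0.057), with median scaling (adjusted p = 0.89) and without the intensity trend in the fit (adjusted p = 0.09). *Txn2*, the mitochondrial thioredoxin that reduces *Prdx3*, had 431.1 in the control and 583.9, 579.4, 469.4 and 532.8 in CR (0.32, interval -0.03 to 0.68), and did not pass.

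The thioredoxin reductases gave less steady values. For *Txnrd1*, the cytosolic enzyme, the bright probe set had 244.2 in the control and 299.0, 336.0, 438.2 and 297.7 in CR (0.47, interval -0.03 to 0.97). A dimmer probe set of the same gene, below the signal filter, went the other way, from 77.3 to 65.2, 39.2, 36.1 and 45.2, so its direction depends on the probe set. *Txnrd2*, the mitochondrial enzyme, had 70.6 in the control and 79.5, 90.1, 88.8 and 51.7 in CR, with the control inside the CR range. *Txnrd3* was also within it (0.40, interval -0.29 to 1.1).

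**Figure D3:**
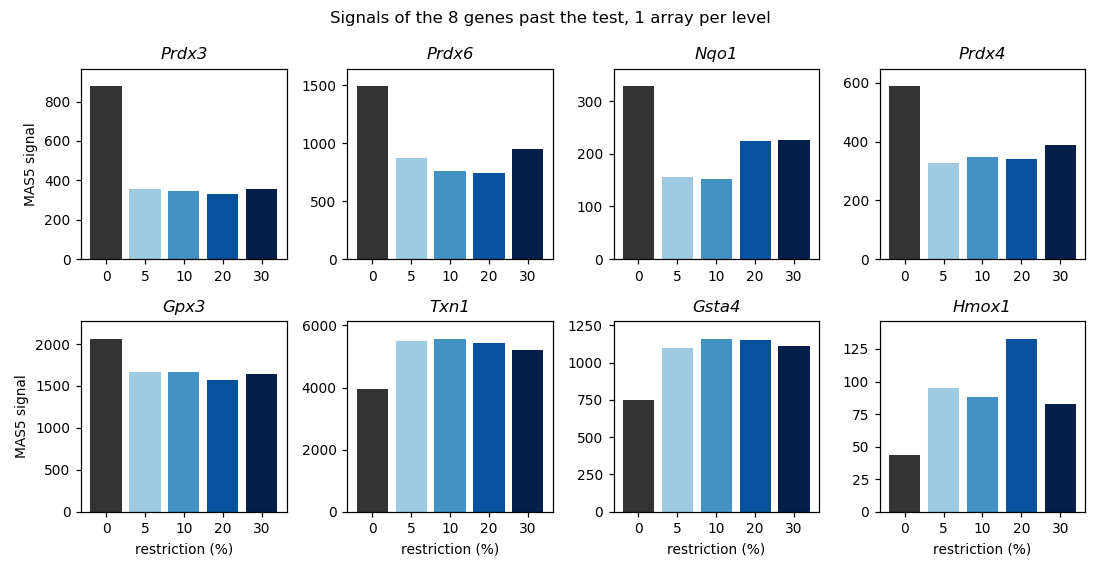
MAS5 signal (y axis, from 0, a scale of its own in each panel) of the 8 genes past the test on the control array (0) and at 5, 10, 20 and 30% restriction (x axis), 1 pooled array per bar. In *Prdx3*, *Prdx4*, *Prdx6*, *Nqo1* and *Gpx3* every CR bar is below the control bar, and in *Txn1*, *Gsta4* and *Hmox1* every CR bar is above it.

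The genes of glutathione synthesis were all below control on every CR array, and none passed the test. Over all probe sets tested, 33.1% lay wholly below. *Gclc*, the catalytic subunit of the rate-limiting enzyme, had 236.9 in the control and 175.7, 200.9, 208.7 and 207.7 in CR (-0.26, interval -0.70 to 0.18). Its dimmer probe set, not tested, had 106.9 in the control and 41.5, 30.1, 9.1 and 61.0 in CR. *Gclm*, the modifier subunit, whose promoter holds the core shown above, had 112.6 in the control and 70.8, 97.2, 80.2 and 71.5 in CR (-0.51, interval -1.23 to 0.21).

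*Gss* had 101.5 in the control and 81.5, 59.5, 80.1 and 68.9 in CR (-0.50, interval -1.26 to 0.26). The intervals of all 3 genes hold both no difference and a decrease of over 1.5-fold. *Gsr* stayed below the filter, at 23.7 in the control and 3.5 to 18.0 in CR, where signals are close to background.

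Of the 6 tested glutathione peroxidases, *Gpx3* fell and none was called higher, beside 11.0% lower and 14.5% higher over all probe sets tested. *Gpx3*, the secreted plasma form, had 2065 in the control and 1663, 1666, 1571 and 1638 in CR. The CR arrays lay within 1.06-fold of each other, a difference of -0.34 ± 0.10 (adjusted p = 0.039). The call was lost without the 5, 10 or 20% array (adjusted p = 0.078, 0.061 and 0.061) and without the intensity trend (0.17), with nearly the same difference. *Gpx4*, which reduces lipid peroxides in membranes, had 3775 in the control and 3204, 2648, 2788 and 3154 in CR. All were below it, by about as much as *Gpx3* (-0.36 ± 0.12), but it missed the threshold (adjusted p = 0.060), which it passed with median, quantile or cyclic loess scaling and without the 30% array. A far dimmer probe set of *Gpx4*, not tested, went the other way, from 9.2 in the control to 21.4, 17.8, 21.9 and 40.0 in CR.

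*Gpx1*, the main cytosolic peroxidase, had 1290 in the control and 1199, 1202, 911.1 and 1273 in CR, with the 20% array lowest (-0.18, interval -0.57 to 0.20). *Gpx2*, known from the gut epithelium, had 66.4 in the control and 133.5, 131.5, 114.2 and 62.9 in CR, so the first 3 levels were above and 30% was level with it. *Gpx7* and *Gpx8*, of the endoplasmic reticulum, had the control inside the CR range (-0.18 and -0.01). *Gpx6* was under 10 on all 5 arrays and was not tested.

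Of 19 glutathione transferases, 12 were tested and *Gsta4* was called higher, beside 14.5% higher over all probe sets tested. *Gsta4*, which conjugates 4-hydroxynonenal-type products of lipid peroxidation, had 752.1 in the control and 1096, 1161, 1152 and 1112 in CR. All 4 levels lay within 1.06-fold of each other and above control, a difference of 0.59 ± 0.11 (adjusted p = 0.0052). With median scaling it was 0.15 (adjusted p = 0.38), and it passed under the other 10 alternatives.

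The mu class showed no common direction. *Gstm1*, a main astrocytic form, had 1903 in the control and 1875, 1579, 1625 and 2033 in CR, with the control inside their range (-0.11, interval -0.43 to 0.22). *Gstm5* was above control on all 4 arrays (0.23, interval -0.01 to 0.47) and *Gstm7* below it (-0.29, interval -0.58 to 0.01). *Gstm4* had the most negative mean of all members, -1.38 (interval -2.67 to -0.08, adjusted p = 0.11). It went from 121.7 in the control to 29.1, 32.9, 68.3 and 73.9 in CR. It passed with median scaling (-1.81, adjusted p = 0.026) and with cyclic loess (-1.83, adjusted p = 0.047), and was below the filter with quantile scaling. Its signals at 5 and 10% CR lay below the filter level of 53.3. *Gstm4* passed the filter only through its high control signal, so that a call could only be a decrease. The 7 mu class members lie in a single run in the GRCr8 gene table, with only *Gstm6* and *Gstm3l1* between them as other coding genes. They are close copies, so whether a probe set also measures a neighbour was not tested.

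*Gstp1*, the pi class form found in oligodendrocytes, whose promoter holds the core shown above, had 2200 in the control and 2306, 2286, 2265 and 2645 in CR (0.11, interval -0.15 to 0.37). *Gsta1* had 1360 in the control and 1333, 1204, 1617 and 1777 in CR, with the control among them (0.11). *Gsto1* (0.26) and *Gstk1* (0.14) were above control on all 4 arrays and *Gstt3* below it (-0.35), and none of these passed. With median scaling *Gsta1*, *Gstk1*, *Gstm5*, *Gsto1*, *Gstp1* and *Gstt2* turned below 0.

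The 7 transferases left untested for low signal were *Gsta3*, *Gsta3l1*, *Gstm3*, *Gstm6l*, *Gsto2*, *Gstp3* and *Gstt1*. With *Gsr* and *Gpx6* they make up the 9 untested members, whose signals ran from 0.5 to 91.5. Of these 9, 6 were above the control on all 4 CR arrays and 1 below. The same shares over all probe sets below the filter were not counted, so these counts cannot be judged. Low signals were more frequent on the control array in general, as given above, and without a filter 2 of the 9, *Gstm6l* and *Gstp3*, were called higher from control signals of 1.1 and 0.5.

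None of the superoxide dismutases and catalase passed. *Sod1*, the cytosolic copper-zinc enzyme, had 4538 in the control and 5438, 5556, 5181 and 5433 in CR, all above it (0.25 ± 0.09, adjusted p = 0.072), and turned to -0.18 with median scaling. *Sod2*, the mitochondrial manganese enzyme, had 598.9 in the control and 431.7, 465.6, 518.2 and 394.3 in CR, all below it (-0.41, interval -0.79 to -0.03, adjusted p = 0.10). *Sod3*, the extracellular form, had 160.3 in the control and 112.3, 83.9, 97.4 and 122.2 in CR, also all below (-0.64, interval -1.28 to 0.01). *Cat*, the peroxisomal catalase, had 521.4 in the control and 491.9, 566.2, 701.5 and 575.8 in CR, with the control inside the range.

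Of the heme oxygenases and quinone reductases, *Hmox2*, *Nqo1* and *Nqo2* lay below the control on all 4 CR arrays and *Hmox1* above it. *Hmox1* passed the filter only through its CR arrays, so a call of it could only be an increase. *Hmox1*, the inducible heme oxygenase, had 43.3 in the control, below the level of the filter, and 94.7, 88.0, 133.0 and 82.9 in CR. All CR arrays were above the control, a difference of 1.18 ± 0.35 (adjusted p = 0.035), which rests on a dim control signal. The call was lost with median (0.74), quantile (0.79) and cyclic loess scaling (0.92), and when the array of 5 or of 20% CR was left out (adjusted p = 0.054 and 0.064). *Hmox2*, the constitutive form in neurons, had 485.2 in the control and 328.4, 203.6, 270.6 and 345.7 in CR, all below it (-0.79 ± 0.26, adjusted p = 0.054). It missed the threshold by little and passed without the 5, 10 or 30% array (adjusted p = 0.047, 0.046 and 0.028).

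*Nqo1*, a quinone reductase and a standard target of Nrf2, had 329.5 in the control and 155.8, 152.0, 225.3 and 226.5 in CR. The 5 and 10% arrays were the lowest and all 4 lay below the control, a difference of -0.82 ± 0.27 (adjusted p = 0.049). This call was at the edge and leaving out the 5 or 10% array ended it (adjusted p = 0.076 and 0.074). It was also lost with quantile scaling (0.085), with cyclic loess (0.058), without a filter (0.054) and without the intensity trend in the fit (0.11). *Nqo2* had 220.4 in the control and 161.1, 149.9, 155.5 and 156.2 in CR, closely grouped and below it (-0.50 ± 0.20, adjusted p = 0.099). Its CR arrays lay within 1.08-fold of each other.

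A slope over 5, 10, 20 and 30%, which leaves out the control array, rests on 4 arrays and 2 residual degrees of freedom. limma called 0 of the 39 members and 0 of all 15521 probe sets (0%), so this fit does not tell whether members follow the level of restriction. At an unadjusted p under 0.05 there were 4 members (10.3%) and 743 probe sets (4.79%). The largest slopes, as log2 per 10 percentage points and not called, were 0.60 ± 0.24 for *Gstm4* and 0.26 ± 0.10 for *Nqo1* upward. Downward they were -0.42 ± 0.14 for *Gpx2* and -0.25 ± 0.18 for *Txnrd2*. The 4 members past the unadjusted p were *Gstm4*, *Nqo1*, *Gpx2* and *Gsta1* (0.21 ± 0.06), and *Txnrd2* was not among them. In 30 of the 39 members, and in 7 of the 8 called, the 4 CR arrays lay within 1.5-fold of each other. The test takes its spread from the CR arrays alone and so favours genes in which they lie close. The count among the called genes is therefore partly fixed by the test. The share over all probe sets was not counted. The slopes of *Prdx3* (-0.00 ± 0.07) and *Txn1* (-0.03 ± 0.05) were close to 0. *Prdx3* differed from the control array by -1.31 at 5% and -1.30 at 30% CR, and *Txn1* by 0.47 and 0.40. These differences share the single control array, so a response to diet and an offset of that array cannot be told apart.

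**Figure D4:**
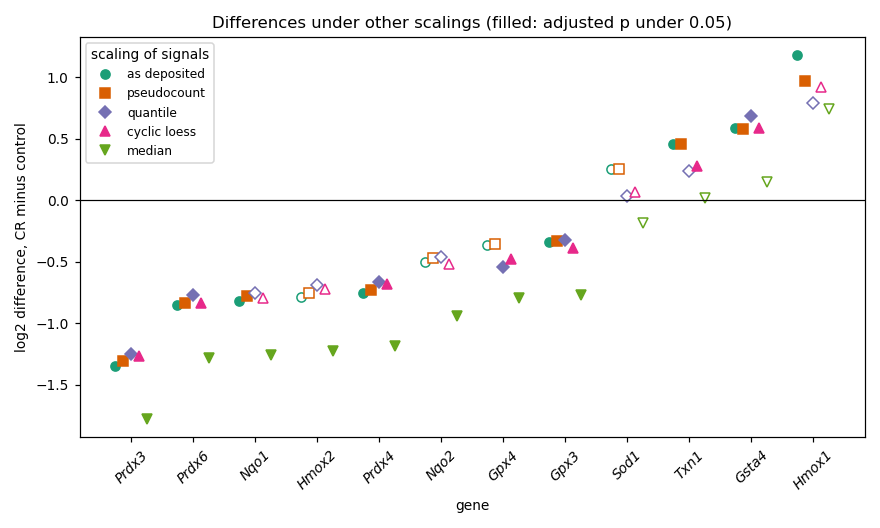
Log2 difference between CR and control (y axis) for the 12 members with an adjusted p under 0.1 (x axis), with signals as deposited, with a pseudocount, and after quantile, cyclic loess or median scaling, filled where the adjusted p was under 0.05. *Prdx3*, *Prdx6* and *Prdx4* are filled throughout, *Sod1* crosses 0 under median scaling (-0.18), and *Txn1* comes to 0.02 there.

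The direction of a small difference depended on how the arrays were put on a common scale. Centring each array on its median moved the median of all tested probe sets by -0.44 on the log2 scale, turned the sign of 12 of the 39 members, and left 0 higher and 18 lower. Over all probe sets the share of calls that were higher went from 56.7% to 16.9%, and to 73.9% without a filter. Quantile and cyclic loess scaling moved that median by -0.02 and -0.06 and turned the sign of 2 members each, *Gpx8* and *Txnrd2*.

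Regulators and other targets of Nrf2 were taken from a list of 23 genes, of which 17 were tested, with 1 higher and 4 lower, beside 14.5% higher and 11.0% lower over all probe sets. *Nfe2l2*, which encodes Nrf2, had 265.2 in the control and 160.2 to 180.9 in CR (-0.62 ± 0.20, adjusted p = 0.043), so all CR arrays were below it. *Mafg*, its small Maf partner, had 120.7 in the control and 216.5 to 286.5 in CR (1.05 ± 0.21, adjusted p = 0.0062). *Taldo1* (-1.31) and *Tkt* (-0.48), enzymes of the pentose phosphate pathway, which supplies NADPH, fell, and so did *Sqstm1* (-0.83), an autophagy receptor that binds the Nrf2 inhibitor Keap1. With quantile scaling the calls of *Nfe2l2* (-0.55, adjusted p = 0.085) and *Tkt* (-0.37, adjusted p = 0.059) were lost, and with median scaling that of *Mafg* (0.61, adjusted p = 0.051). The other 12 tested did not pass.

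Of 34 other thiol and peroxide genes, 28 were tested, with 1 higher and 7 lower, against the same 14.5% and 11.0% of all probe sets. *Mt2A*, a metallothionein, rose by 1.36 ± 0.15 (342.0 in the control, 806.9 to 1003 in CR, adjusted p = 3.9e-04). *Msrb2*, a mitochondrial methionine sulfoxide reductase (-0.98), *Sesn1*, a sestrin (-0.97), and *Nnt*, which makes NADPH in mitochondria (-0.70), fell. *Txnl1*, a thioredoxin-like protein (-0.50), *Glrx5*, a mitochondrial glutaredoxin (-0.50), and *Selenow*, a small selenoprotein (-0.49), had adjusted p-values near the threshold (0.034, 0.042 and 0.047). With quantile scaling the calls of *Txnl1*, *Glrx5*, *Selenow* and *Msrb2* were lost (adjusted p = 0.079, 0.11, 0.073 and 0.067), *Glrx5* also with cyclic loess (0.056) and *Selenow* without a filter (0.052). The median differences of both lists were -0.18 and -0.12.

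Marker genes of the cell types in the tissue gave calls in both directions. The counts are small and stand beside 14.5% higher and 11.0% lower over all probe sets tested. Of 6 tested astrocyte markers 1 was higher and 1 lower, with a summed signal of 21672 in the control and 21706 to 22796 in CR. Of 6 myelin markers 2 were lower (21257, against 19763 to 21456), and of 6 microglial markers 1 was higher (2051, against 2006 to 2198). Of 5 endothelial markers 1 was lower (1565, against 1096 to 1138), and of 5 general neuron markers 2 were lower (12588, against 10349 to 11083). Hypothalamic neuron markers gave 2 higher and 1 lower of 8 (20063, against 21628 to 23904). Of 6 pituitary markers 3 were tested and called higher (988.4, against 2047 to 2849), and of 4 choroid plexus markers 2 were tested and 1, *Ttr*, was called higher (123.1, against 244.8 to 316.5). *Lhb*, *Tshb* and *Ttr* had control signals of 33.6, 43.3 and 35.5, below the filter, and were tested only through their CR arrays, which leaves *Cga* (877.4, against 1714 to 2333) as the call that did not depend on this. Neither of the 2 red blood cell markers passed (5186, against 5412 to 8174). A summed signal follows its brightest genes. Most of the endothelial fall came from *Cldn5* (664.1 in the control, 238.4 to 281.1 in CR). *Slco1a4* was also below control on every CR array, *Pecam1* was above it, and *Flt1* and *Esam* had it within their range. The red cell sum was mostly *Hbb* (5044 in the control), while *Alas2* was below control on every CR array. No listed marker was at 0 on any array, and the part of these cell types in the differences of the antioxidant genes was not tested.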

How the data were processed

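The deposited values are MAS5 signal intensity (linear, not log) of Affymetrix Rat Genome 230 2.0 arrays. MAS5, named in the submitters' processing notes, subtracts mismatch from perfect-match signal and scales each array, so low values are noisy. The trimmed mean was 158.8 on all 5 arrays of 1 week. The other 5 columns, those of 1 month, were not used. The 4 zeros were set to 0.1 and log2 was taken. Symbols came from the platform annotation, and all 48 members had the same symbol in the GRCr8 gene table.

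Probe sets above the 50th percentile of mean log2 signal, control probe sets left out, were fitted with limma 3.58.1 (R 4.3.3, eBayes with an intensity trend, 3 residual degrees of freedom for CR against control and 2 for the slope). The 4 levels were fitted as 1 CR group, although each is a different dose. The study's own change calls need files not used here. The fit was tested on simulated data in which the control array varied as the CR arrays do. That could not show how the calls behave with a control array that differs as a whole. Tables and figures used Python 3.11.15, pandas 2.3.3, numpy 2.4.6 and matplotlib 3.10.9. Members passing, and defining members, were given on every array, and listed genes only if they passed, at most 6 per direction. The members and lists were chosen with earlier results of these data known. Each choice was varied in turn, with scaling by medians or quantiles, a filter at the 75th percentile or none, 13.7 (the 20th percentile) added before the log, eBayes without a trend, leaving out each CR array, any probe set of a gene, and the control as 0% in the slope. Cyclic loess was added after the data were seen.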

Additional observations from a re-analysis of the deposited data

Results flagged for a closer look

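Among the 39 tested members, *Gstp1* was the only gene in which the gap of 1 CR array to the other 3, as a share of the range, passed the cut-off. Its 30% CR array, at 2645, stood above 2265 to 2306 at the other levels, with a gap of 0.885 of the range of the 4 arrays, more than Dixon's critical value for 4. Chance gives such a gap in about 1 of 20 groups. The CR arrays of *Gstp1* lay within 1.17-fold of each other, and other members had an array further off by signal. *Gpx2*, for example, had 62.9 at 30% CR and 114.2 to 133.5 at the other levels.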

How the results depend on the processing

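With median scaling 0 members were higher and 18 lower (as deposited 3 and 5), and 1023 and 5024 of all probe sets (2246 and 1712), and *Sod1* turned to -0.18. With quantile scaling 1 member was higher. Without a filter 5 members and 4943 probe sets were higher, and at the 75th percentile 1295 probe sets were. Without the intensity trend 3 members and 1006 probe sets were lower. Leaving out 1 CR array gave 2 to 4 members higher and 4 to 7 lower. The decreases of *Prdx3*, *Prdx4* and *Prdx6* passed under all 11 alternatives, *Gsta4* under 10 of 11, *Txn1* under 8 of 11, *Gpx3* under 7 of 11, *Nqo1* under 5 of 11 and *Hmox1* under 5 of 10. Each of these fits of CR against control keeps the single control array. The cause of the shifts between settings was not tested. Counting any probe set of a gene altered no member call, since the other 4 probe sets were below the filter. No slope was called under any of the 6 alternatives. No detection calls were used, so a dim signal may be background alone.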
